A study of Mus musculus with 2 samples.

Results

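The nuclear genes for the subunits of the mitochondrial respiratory chain and the ATP synthase were followed across open chromatin of fetal mouse liver. The set held every protein-coding gene of the GENCODE M21 annotation whose symbol starts with Ndufa, Ndufb, Ndufc, Ndufs, Ndufv, Uqcr, Cox4 to Cox8 or Atp5, plus Sdha, Sdhb, Sdhc and Sdhd. Assembly factors with Ndufaf symbols were left out. This gave 86 gene records with 85 symbols (Atp5o has 2 records) among 21938 protein-coding records, of which 38 belong to complex I by symbol, 4 to complex II, 8 to complex III, 18 to complex IV and 18 to complex V.

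The respiratory chain of the inner mitochondrial membrane passes electrons from NADH and succinate to oxygen, and its proton pumps drive the ATP synthase. A few subunits are encoded by mitochondrial DNA, and all others come from nuclear genes, among them those described here. Both genomes must thus supply parts of complexes I, III, IV and V, whereas complex II is wholly nuclear. Promoters of these genes are known for binding sites of NRF1, of the ETS factor GABP (also called NRF2) and of YY1. Complex IV, cytochrome c oxidase, is the one with many tissue isoforms: muscle, heart, lung and testis use their own versions of several small subunits. Erythroid precursors make up much of the fetal liver at midgestation, and they need mitochondria for heme synthesis before losing them as they mature.

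The data came from DNase-seq, which maps open chromatin by where DNase I cuts nuclear DNA. Both libraries were made from liver of mouse embryos at 13.5 days, strain C57BL/6N,129, with the genotype given as LCR deletion and HET globin mutation. The labels do not give the extent of the deletion or the nature of the globin mutation, and the sex was not collected. There was 1 group with 2 biological replicates, which carry different biosample entries but the same donor entry, and no control genotype, so the effect of the mutations could not be tested and every gene is described against the other genes of the same library.

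Replicate 1 had 47198 peaks and 123897 footprints, and replicate 2 had 36523 peaks and 94430 footprints, where a footprint is a short stretch inside open chromatin that the authors called as protected from cutting. The value of a peak is the authors' signal, a whole multiple of 0.0123 in replicate 1 and of 0.0139 in replicate 2. If the values are RPM with 1 step for 1 read, these steps correspond to about 81200000 and 72100000 reads, and the 95% Poisson intervals given below rest on the same reading of a step and cover counting error only. Promoters of 6 of 8 erythroid markers (Gata1, Klf1, Tal1, Epb42, Slc4a1 and Hbb-bs) had a peak in both libraries, and Gfi1b and Alas2 had one in replicate 1 alone. Among 6 hepatoblast and hepatocyte markers the promoter of Afp was open in both libraries, with values of 1.15 and 0.624, those of Foxa2, Ttr and Apoa1 in replicate 1 alone, and those of Alb and Hnf4a in neither, so the erythroid markers were open more often than the hepatocyte markers. In such bulk tissue, fewer cells with an open promoter and less opening per cell cannot be told apart.

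Nearly every respiratory chain gene had an open promoter. A peak lay within 1000 bases of an annotated start in both libraries for 79 of the 86 records (91.9%), against 54.1% of all protein-coding genes, and no member was open in 1 library alone. In single libraries, 58.5% of all protein-coding genes were open in replicate 1 and 55.4% in replicate 2. By complex, 37 of 38 records were open in complex I, 4 of 4 in complex II, 8 of 8 in complex III, 13 of 18 in complex IV and 17 of 18 in complex V. The mitochondrial ribosomal protein genes (78 of 78) and the cytosolic ribosomal protein genes (79 of 82) were also almost all open, so such a share was found in other sets of broadly used genes too.

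The promoter value of a gene was taken as its highest peak within 1000 bases of a start. Over the 79 open members the median was 8.37 in replicate 1 and 4.81 in replicate 2, against 5.79 and 3.67 over all open protein-coding promoters. Member values ran from 1.74 to 25.3 in replicate 1 and from 1.58 to 9.77 in replicate 2. In replicate 1, 57 of the 79 lay over the median of all open promoters and 28 over their 75th percentile, and in replicate 2 the counts were 58 and 25. In each library 3 members lay under the 25th percentile. The respiratory chain set thus sat in the upper part of the range without being uniformly high, and its median was above that of the mitochondrial ribosomal protein genes (6.24 and 3.86) and, for the cytosolic ribosomal protein genes (8.06 and 5.50), above in replicate 1 and below in replicate 2.

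**Figure D1:**
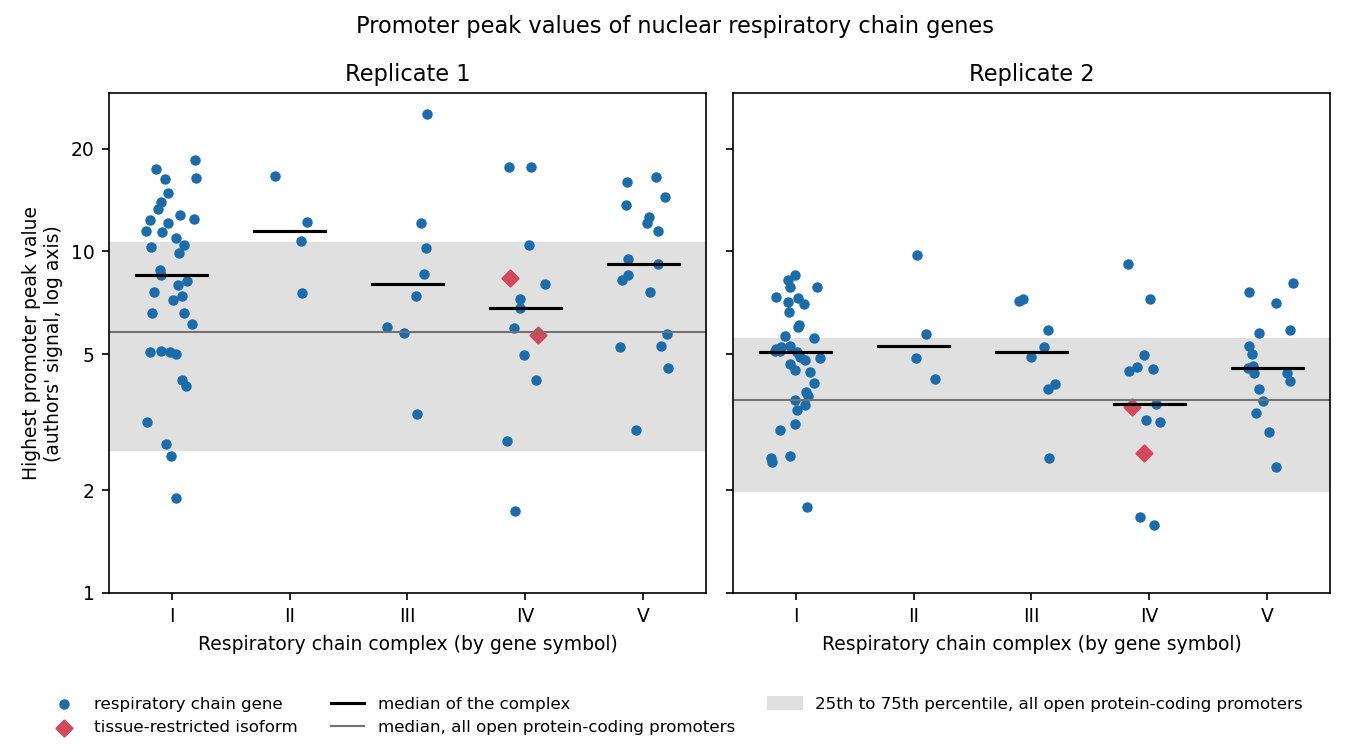
Highest promoter peak value (authors' signal, log axis) of each open respiratory chain gene by complex, in replicate 1 (left) and replicate 2 (right). Points are genes, diamonds tissue-restricted isoforms, black bars medians of each complex, and the grey line and band the median and the 25th to 75th percentile of all open protein-coding promoters; complex IV had the lowest median in both libraries (6.83 and 3.56).

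Complex I takes electrons from NADH and passes them to ubiquinone. Its 37 open members had medians of 8.50 in replicate 1 and 5.07 in replicate 2. Their values ran from 1.90 to 18.5 in replicate 1 and from 1.79 to 8.55 in replicate 2, so the complex spanned low and high promoters.

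The highest and lowest members of a complex are named here by the mean log2 value over both libraries, and the order within 1 library can differ. By that mean the highest complex I promoters were those of Ndufa7, with 17.4 in replicate 1 (interval 16.5 to 18.3) and 8.23 in replicate 2 (7.59 to 8.92), of Ndufa8, with 16.4 and 8.55, and of Ndufv3, with 18.5 and 7.0. They lay at the 93.4th, 91.4th and 94.9th percentile of open promoters in replicate 1 and at the 95.5th, 96.6th and 88.6th in replicate 2. The lowest were Ndufa1, with 2.51 and 1.79, and Ndufc2, with 1.90 (1.61 to 2.22) and 2.48 (2.13 to 2.87). Ndufc2 and Ndufb7 (3.17 and 3.77) were the members whose value was higher in replicate 2 than in replicate 1, with intervals that overlapped for both genes, and the other 77 were all lower there. Ndufa4, named as a complex I subunit but now assigned to complex IV, had 6.12 and 4.69.

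Complex II, succinate dehydrogenase, also works in the citric acid cycle and has 4 subunits. Sdha, the flavoprotein that oxidises succinate, had 16.7 in replicate 1 (15.8 to 17.6) and 9.77 in replicate 2 (9.06 to 10.5), the highest value of all members in replicate 2. Sdhb, the iron-sulfur subunit, had 10.7 and 4.23, and the membrane anchors Sdhc and Sdhd had 12.2 and 5.71, and 7.57 and 4.88. All 4 were over the median of open promoters in both libraries. Sdha and Sdhb, which work as a catalytic pair, differed by more than their counting intervals in both libraries.

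Complex III hands electrons from ubiquinol to cytochrome c. Uqcrq, a small subunit of the membrane part, had the highest value of the set in replicate 1, 25.3 (24.2 to 26.4), and 7.18 (6.58 to 7.83) in replicate 2. Uqcrh, the hinge protein, had 10.3 and 7.24, and the Rieske iron-sulfur protein Uqcrfs1 had 12.1 and 5.88. At the low end were Uqcrc2, a core protein, with 5.78 and 3.95, and Uqcrb, with 3.34 and 2.48. Uqcrq led complex III in replicate 1 by a wide margin, whereas Uqcrq and Uqcrh could not be separated within their intervals in replicate 2.

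Complex IV reduces oxygen to water. Its highest promoters were Cox6a1, with 17.7 in replicate 1 and 9.20 in replicate 2, Cox5b, with 17.7 and 7.25, and Cox8a, with 10.5 and 4.96. The lowest were Cox7c, with 2.78 and 1.66, and Cox7b, with 1.74 (1.46 to 2.05) and 1.58 (1.30 to 1.90). Cox7b was the lowest open member of the whole set in both libraries. Of the 13 open complex IV genes, 8 were over the median of open promoters in replicate 1 and 6 in replicate 2.

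Complex V makes ATP with its F1 head and membrane-bound Fo motor. Its 17 open members had medians of 9.18 and 4.55. The 5 subunits of the F1 head (Atp5a1, Atp5b, Atp5c1, Atp5d and Atp5e) ran from 4.55 for Atp5a1 to 12.6 for Atp5b in replicate 1 and from 2.95 for Atp5a1 to 5.88 for Atp5c1 in replicate 2. The highest of complex V by the mean over libraries were Atp5s, coupling factor B, with 15.9 and 8.08, Atp5f1, the b subunit of the stalk, with 16.5 and 7.06, and Atp5mpl, a small proteolipid, with 13.7 and 7.62. The lowest were Atp5a1, the alpha subunit, with 4.55 and 2.95, and Atp5l, subunit g, with 2.99 and 2.34. The alpha and beta subunits alternate in the same ring, yet the promoter value of Atp5b (12.6 and 4.60) was above that of Atp5a1 beyond counting error in both libraries.

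The 3 genes for subunit c of the rotor ring, Atp5g1, Atp5g2 and Atp5g3, encode the same mature protein with different import sequences. Their promoters had 14.5, 9.51 and 5.30 in replicate 1 and 5.02, 5.30 and 4.41 in replicate 2. Atp5g1 was the highest and Atp5g3 the lowest in replicate 1. In replicate 2 the intervals of all 3 overlapped (4.51 to 5.56, 4.78 to 5.85 and 3.94 to 4.92). Overlap does not show equal values, and the differences were not tested, so no order is given there.

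The 3 X-linked members were all low: Ndufa1 (2.51 and 1.79), Ndufb11 (4.04 and 3.01) and Cox7b (1.74 and 1.58). Their median was 2.51 in replicate 1 and 1.79 in replicate 2, against 8.52 and 4.88 over the 76 open autosomal members. Across all protein-coding genes the 353 open X-linked promoters also had lower medians, 3.12 and 1.79, than the 11512 open autosomal ones, 5.93 and 3.77. The lower X-linked values were therefore shared with other X-linked genes, and the cause was not tested.

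The members without a promoter peak were mostly isoforms used in particular tissues. Of 8 such isoforms, Cox6b2 and Cox7a1 were open in both libraries (2 of 8), whereas 77 of the other 78 member records were open. Closed in both libraries were Cox4i2 (lung form of subunit 4), Cox6a2 and Cox8b (heart and skeletal muscle forms), Cox7b2 and Cox8c (testis forms) and Ndufa4l2 (a paralog of Ndufa4 induced by low oxygen). The one other closed record was the second Atp5o record (ENSMUSG00000116933), whose annotated start lies inside the gene and whose transcript is marked as incomplete at its 5′ end, and the main Atp5o record had 7.60 and 3.96.

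None of these 7 closed records had a single base listed in the authors' table of cutting below a false discovery rate of 0.05 within 1000 bases of a start, in either library. The nearest peak to a start lay 152396 bases from Cox7b2 in replicate 1 and 152889 in replicate 2, and 30514 and 30814 bases from Cox6a2. It lay 20656 and 20616 bases from Cox8c, 11433 and 11478 bases from Cox4i2, and 2895 bases from Cox8b in both libraries. For Ndufa4l2 the distance was 1867 bases in replicate 1 and 1242 in replicate 2, so a wider window of 2500 bases counted it as open. The closed promoters thus lay apart from any called peak, and Ndufa4l2 and Cox8b had the nearest ones.

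Each isoform was set against its common counterpart. Closed Cox4i2 stood against open Cox4i1 (8.02 and 4.48), Cox6a2 against Cox6a1 (17.7 and 9.20), Cox7b2 against Cox7b (1.74 and 1.58), Cox8b and Cox8c against Cox8a (10.5 and 4.96), and Ndufa4l2 against Ndufa4 (6.12 and 4.69). Every common form was open in both libraries. The open isoforms were different. Cox6b2, the testis form of subunit 6B, had 8.37 (7.75 to 9.02) and 3.51 (3.09 to 3.97), against 6.83 (6.27 to 7.42) and 3.16 (2.76 to 3.60) for Cox6b1, a log2 ratio of 0.29 in replicate 1 and 0.15 in replicate 2. The highest Cox6b2 peak of replicate 2 lay inside the gene, and the peak at its start had 3.01 there, slightly below Cox6b1.

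Cox7a1, the heart and muscle form of subunit 7A, had 5.69 (5.18 to 6.24) and 2.56 (2.21 to 2.96), against 5.95 (5.43 to 6.51) and 3.22 (2.82 to 3.66) for Cox7a2. The log2 ratio of Cox7a1 over Cox7a2 was -0.06 in replicate 1 and -0.33 in replicate 2, and the intervals overlapped in both. Overlap does not show equal values, and Cox7a1 was the lower in both libraries. Both open isoforms were thus near the level of their common form in these libraries. Among 6 markers of skeletal and heart muscle, Ckm alone was open in both libraries (3.18 and 2.86), Actc1 in replicate 1 alone, and Acta1, Myh6, Myh7 and Myog in neither. Of 5 testis germ cell markers, Dazl was open (7.48 and 3.53), whereas Ddx4, Prm1, Tnp1 and Acrv1 had no promoter peak. Of 4 lung and smooth muscle markers, Myh11 was open (1.58 and 0.956), and Sftpc, Scgb1a1 and Acta2 were not.

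**Figure D2:**
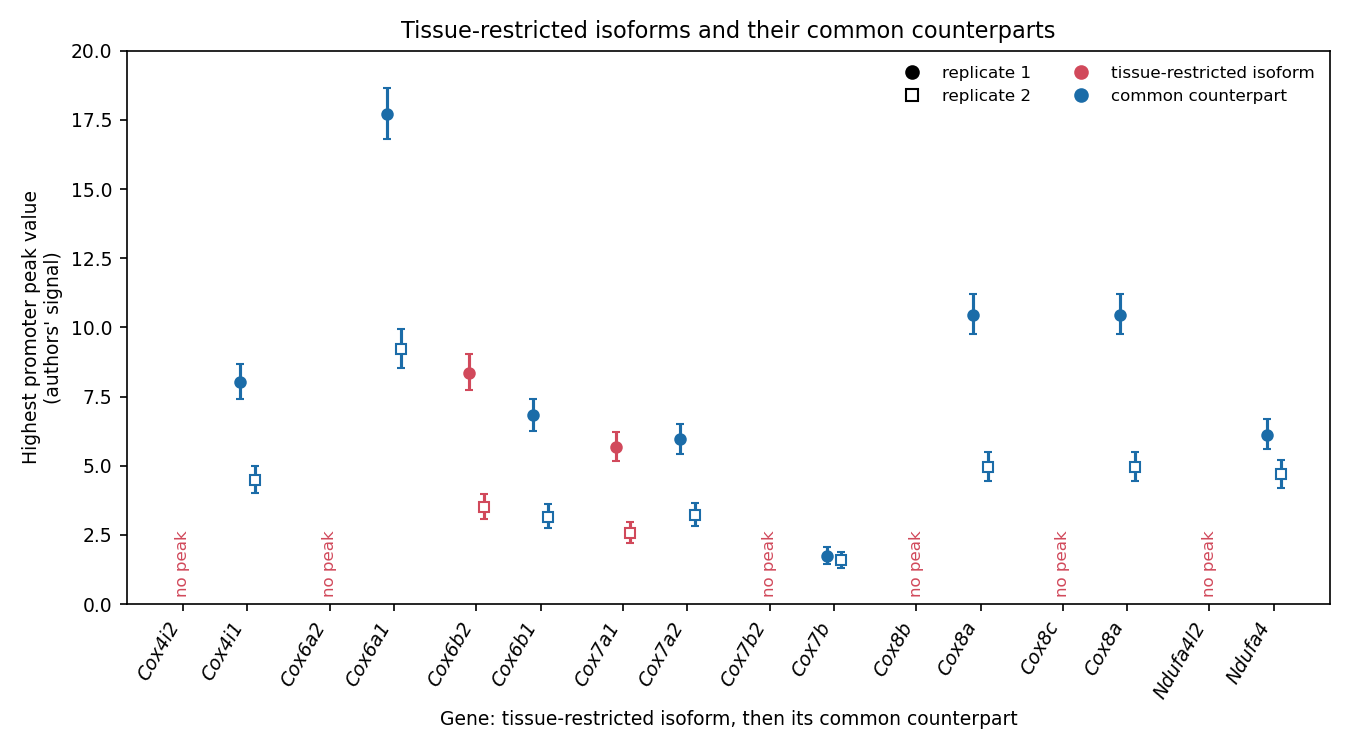
Highest promoter peak value (authors' signal) of each tissue-restricted isoform, left of its common counterpart, in replicate 1 (filled circles) and replicate 2 (open squares). Bars are 95% Poisson intervals, and among the isoforms Cox6b2 and Cox7a1 had a peak, as had all common counterparts.

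The isoforms also differed from the other members in CpG content. The ratio of observed CpG to that given by the C and G content in the RefSeq promoter window, 250 bases before to 50 after the start, had a median of 0.382 (0.115 to 0.564) over the 4 isoforms with a window, Cox6b2, Cox7a1, Cox7b2 and Cox8b, against 0.823 (0.368 to 1.14) over 63 other members. All genes open in both libraries had a median of 0.784, and all genes without a peak 0.202. Cox7a1, with a ratio of 0.333, was open all the same, and Cox7b, with the lowest ratio of the common counterparts (0.368), had the lowest open promoter of the set. The pair of Cox7b2 and Cox7b went the other way. In the RefSeq window closed Cox7b2 had a ratio of 0.564 and 10 CpG, against 0.368 and 5 for open Cox7b. In the other pairs with windows the isoform had the lower ratio. The 250 bases before the start are shown for an open and a closed isoform, each followed by its common counterpart, from RefSeq (GRCm38.p6), 5′ to 3′ on the strand of the gene with each CpG in capitals. They hold 4 CpG in Cox7a1 against 14 in Cox7a2, and 1 in Cox8b against 11 in Cox8a.
Cox7a1, chr7:30183921-30184170, plus strand: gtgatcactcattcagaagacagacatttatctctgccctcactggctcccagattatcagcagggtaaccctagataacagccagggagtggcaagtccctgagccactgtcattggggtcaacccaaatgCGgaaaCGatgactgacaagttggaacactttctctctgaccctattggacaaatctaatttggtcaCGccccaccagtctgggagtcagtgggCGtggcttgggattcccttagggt
Cox7a2, chr9:79759854-79760103, minus strand: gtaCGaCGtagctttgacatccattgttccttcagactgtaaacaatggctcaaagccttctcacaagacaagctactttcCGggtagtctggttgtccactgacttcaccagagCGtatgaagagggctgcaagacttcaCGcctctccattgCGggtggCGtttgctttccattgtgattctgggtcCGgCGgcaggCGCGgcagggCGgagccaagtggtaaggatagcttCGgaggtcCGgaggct
Cox8b, chr7:140900447-140900696, minus strand: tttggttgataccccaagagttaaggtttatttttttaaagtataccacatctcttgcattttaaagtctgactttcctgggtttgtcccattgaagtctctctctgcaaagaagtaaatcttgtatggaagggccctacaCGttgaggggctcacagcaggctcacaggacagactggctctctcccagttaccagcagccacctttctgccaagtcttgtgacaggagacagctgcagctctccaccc
Cox8a, chr19:7217617-7217866, minus strand: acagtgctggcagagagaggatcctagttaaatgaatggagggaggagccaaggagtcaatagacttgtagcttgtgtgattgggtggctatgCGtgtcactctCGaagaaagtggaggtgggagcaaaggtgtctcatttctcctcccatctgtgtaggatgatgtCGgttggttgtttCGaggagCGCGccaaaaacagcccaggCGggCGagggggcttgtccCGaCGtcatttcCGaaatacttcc

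Most member promoters were simple. The highest peak of replicate 1 covered an annotated start in 73 of the 79 open members, a count that was not made over all open genes. Its centre was within 100 bases of a start in 88.6% of members in replicate 1 and 75.9% in replicate 2, against 68.9% and 65.7% of all open genes. In replicate 1, 26 members (32.9%) had more than 1 promoter peak, against 58.1% of all open genes. The mitochondrial ribosomal protein genes were as simple, with 91.0% and 87.2% centred within 100 bases and 29.5% with more than 1 peak. For the cytosolic ribosomal protein genes these shares were 84.8%, 81.0% and 43.0%. For Ndufa11, Ndufa13 and Uqcrh the highest peak was not the one nearest to the start in either library. In replicate 1 it lay 607 bases from a start of Ndufa11, whose nearest peak had 7.74 and 5.12, 623 bases from Ndufa13, whose nearest peak had 1.69 and 1.61, and 250 bases from Uqcrh, whose nearest peak had 4.76 and 3.08. Ndufa13 would be among the lowest members by its nearest peak, and is among the highest by the peak used here (16.3 and 7.86). In replicate 2 alone the same held for Cox6b2, Atp5l and Atp5a1, whose nearest peak there had 1.48, against 2.95 for its highest.

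Many members shared their promoter with a gene on the other strand. A protein-coding start facing away lay within 1000 bases upstream of 19 of the 86 records (22.1%), against 6.79% of all protein-coding genes. The mitochondrial ribosomal protein genes (18 of 78, 23.1%) and a list of 46 assembly factors (11, 23.9%) had like shares. The cytosolic ribosomal protein genes had a lower one (8 of 82, 9.76%). In all 19 the partner had the same highest peak in replicate 1. Windows around starts this close largely coincide, so this follows mostly from how the peak was chosen. Among the highest of the 19 were Uqcrq with Gdf9 at 192 bases, Sdha with Ccdc127 at 29 bases, Ndufa7 with the ribosomal protein gene Rps28 at 10 bases and Ndufa8 with Morn5 at 52 bases. Others were Ndufv3 with Wdr4 at 135 bases, Uqcrh with Lrrc41 at 198, Atp5c1 with Kin at 83 and Ndufa2 with Ik at 99. Such peaks cannot be assigned to either gene alone, so the highest value of the set in each library, Uqcrq in replicate 1 and Sdha in replicate 2, belongs to a shared promoter.

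Another count took any coding start of the opposite strand in or within 100 bases of the highest peak, which also takes in starts that overlap. It held for 22 of the 79 open members (27.8%), against 13.6% of all open genes. It left out Ndufa4, Ndufa5 and Uqcr10, whose facing starts lay farther from the peak. The pairs included Sdhd with Timm8b, a small chaperone of mitochondrial import, Ndufs6 with Mrpl36, a mitochondrial ribosomal protein gene, and Atp5j with Gabpa, which encodes the DNA-binding subunit of GABP. Members with such a partner had medians of 9.72 in replicate 1 and 5.0 in replicate 2, against 8.26 and 4.57 for the 57 members without. All open genes showed a wider gap, with 8.63 and 4.87 against 5.30 and 3.42. Members without such a partner were thus above other genes without one.

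Footprints were found in every open member promoter. All 79 had at least 1 footprint within 1000 bases of a start in both libraries, against 95% of all open genes, with a median of 6 per promoter in each library (7 in replicate 1 and 6 in replicate 2 over all open genes). Inside the highest peaks the median density was 1.92 footprints per 100 bases in replicate 1 and 1.79 in replicate 2, against 1.67 and 1.47 over all open genes. All open mitochondrial (78) and cytosolic (79) ribosomal protein genes also had a footprint in both libraries. Their densities were 1.82 and 1.58 for the mitochondrial and 2.0 and 1.67 for the cytosolic set. Among members, Ndufa11 had the most footprints in replicate 1, with 18 and 14, and Atp5g2 the most in replicate 2, with 14 and 16. Footprint number did not follow the peak value closely among members, with a Spearman rho across 79 genes, which share library and depth, of -0.14 in replicate 1 and 0.20 in replicate 2, against 0.39 and 0.54 over all open genes.

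Footprints of the respiratory chain genes were searched for 12 consensus motifs on both strands, with each footprint widened by 5 bases on each side. NRF1, nuclear respiratory factor 1, is known for its part in the control of mitochondrial genes. A match to GCGCNTGCG lay in a promoter footprint in both libraries in 27 of the 79 open members (34.2%), against 15.9% of all open genes. By complex there were 12 of 37 in complex I (among them Ndufa5, Ndufa6, Ndufa8, Ndufa12, Ndufb4, Ndufb10, Ndufs5 and Ndufs6), 2 of 4 in complex II (Sdha and Sdhd), 3 of 8 in complex III (Uqcr10, Uqcr11 and Uqcrc1), 2 of 13 in complex IV (Cox6a1 and Cox6c) and 8 of 17 in complex V (among them Atp5c1, Atp5g2, Atp5g3, Atp5h, Atp5k and Atp5o). The mitochondrial ribosomal protein genes had 18 of 78 and the cytosolic ribosomal protein genes 12 of 79. A match of letters does not show which protein was bound.

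To show what these matches look like, footprint sites of 5 members with high promoter values are given as 30 bases of mm10, 5′ to 3′ on the strand of the gene, with the letters of the NRF1 match in capitals. On that strand the motif can read in either direction. The matches lay between 25 bases upstream (Ndufb10) and 63 bases downstream (Ndufa8) of the nearest annotated start.
Sdha, chr13:74350231-74350260, minus strand: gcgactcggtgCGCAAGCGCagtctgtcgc
Ndufa8, chr2:36049329-36049358, minus strand: gtcgctggagaCGCATGCGCagatggtacc
Atp5mpl, chr12:111966979-111967008, minus strand: ggccctgcgcgGCGCCTGCGtgctctgtga
Ndufa6, chr15:82354250-82354279, minus strand: cccgtggcaccGCGCGTGCGcacgctgaag
Ndufb10, chr17:24724431-24724460, minus strand: gctgcccactaCGCAGGCGCagctgtcacc

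Positions of these matches were taken inside the highest peaks only. In replicate 1 those peaks had a median width of 220 bases, and 88.6% were centred within 100 bases of a start. A match inside them therefore lies near a start largely by construction, and positions were not set against those of all open genes. Inside the highest peaks, 28 NRF1 sites of 21 members lay in a footprint in both libraries, with a median position of 10 bases upstream of the start, and 22 of them within 100 bases. Most NRF1 matches that fell in an open member promoter were footprinted, with 30 of 32 (93.8%) in replicate 1 and 33 of 36 (91.7%) in replicate 2, against 85.6% and 79.4% in the highest peaks of all open genes. The median was 8.60 and 4.89 over members with an NRF1 footprint, against 8.27 and 4.64 over the 52 members lacking one. Across all open genes the gap was wider, with 9.80 and 5.50 for genes with an NRF1 footprint against 5.05 and 3.30 for genes without. Among members, then, promoters with and without the match were at like levels.

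**Figure D3:**
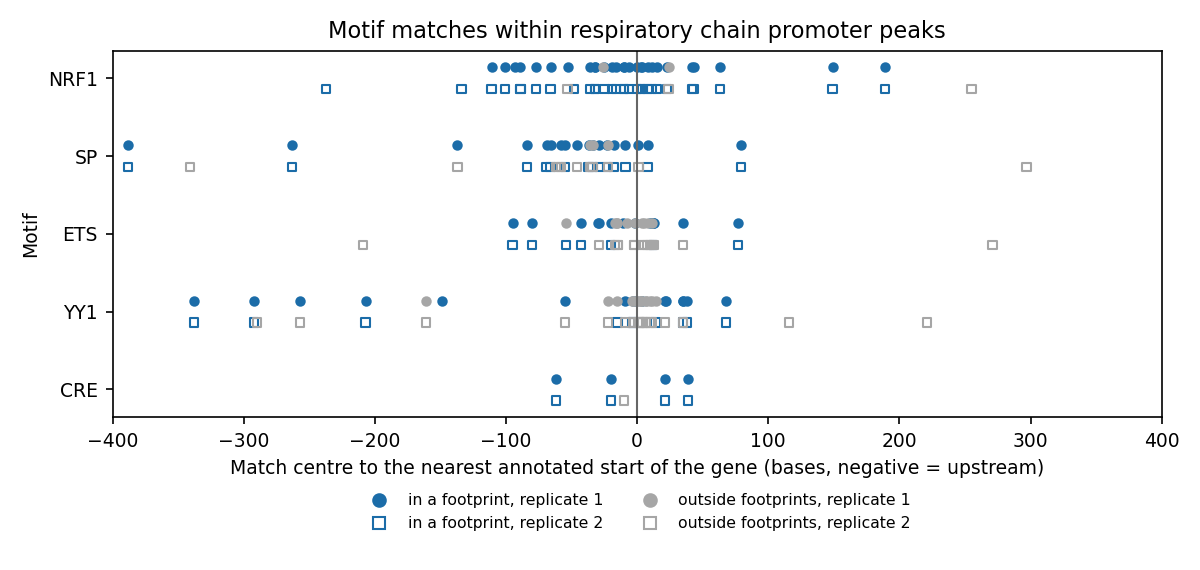
Position of motif matches in the highest promoter peaks of the open respiratory chain genes, as bases from the match centre to the nearest annotated start of the gene (negative is upstream). Blue marks lie in a footprint and grey ones outside, circles are replicate 1 and squares replicate 2, and 3 matches in replicate 1 and 5 in replicate 2 past 400 bases are not drawn. NRF1 matches were mostly footprinted, whereas ETS and YY1 matches near the start were often outside footprints. The peaks are themselves mostly centred near a start, which bounds the positions shown.

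ETS factors, among them GABP, bind sites with the letters CCGGAAG. Such a match lay in a promoter footprint in both libraries in 7 members (8.86%), against 7.02% of all open genes: Atp5e, Ndufb9, Ndufs3, Ndufs8, Sdhb, Sdhd and Uqcrh. This share was close to that of all genes, and it depended on the library, with 15 members in replicate 1 and 9 in replicate 2. Single libraries were not counted over all open genes. In both libraries the mitochondrial ribosomal protein genes had 14 of 78 (17.9%) and the cytosolic ones 9 of 79 (11.4%), both above the members. Within the highest peaks 14 of 24 ETS matches (58.3%) were footprinted in replicate 1 and 7 of 23 (30.4%) in replicate 2, against 44.3% and 34.8% in the highest peaks of all open genes. Sdhd held both an NRF1 and an ETS match in footprints, and so did Ndufs8. ETS sites of Sdhb, Sdhd and Ndufs8 are shown in the same way, with the match in capitals.
Sdhb, chr4:140961266-140961295, plus strand: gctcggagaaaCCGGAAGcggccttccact
Sdhd, chr9:50603878-50603907, minus strand: accgtctcctgcCTTCCGGttcacgcttca
Ndufs8, chr19:3912742-3912771, minus strand: cttaggctccgcCTTCCGGttgaaccgcat

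YY1, a zinc finger factor that can activate or repress, was searched as AANATGGC. A footprinted match in both libraries was found in 8 members (10.1%), against 3.25% of all open genes: Atp5h, Atp5o, Ndufa2, Ndufb5, Ndufb11, Ndufc1, Uqcrb and Uqcrh. The mitochondrial ribosomal protein genes had 4 of 78 (5.13%) and the cytosolic ones 6 of 79 (7.59%), both between the members and all open genes. In single libraries there were 18 members in replicate 1 and 11 in replicate 2. When footprints were not widened, 0 members kept a YY1 match and 1 an ETS match in both libraries. Neither this setting nor the single libraries were counted over all open genes. The gap in footprinted YY1 matches is therefore shown for widened footprints in both libraries only. The sites of Ndufc1, 35 bases downstream of its start, and Atp5o, 3 bases upstream, are shown with the match in capitals.
Ndufc1, chr3:51408915-51408944, minus strand: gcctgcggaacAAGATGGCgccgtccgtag
Atp5o, chr16:91931540-91931569, minus strand: ccgcccgggaaAAGATGGCcgcgcctgcag

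The GC box GGGGCGGG bound by SP factors was footprinted in both libraries in 13 members (16.5%), against 23.3% of all open genes. Those 13, among them Uqcrq, Cox6a1, Ndufa8, Atp5s and Atp5f1, had medians of 13.3 and 6.67, against 7.60 and 4.51 for the 66 members without. All open genes had a gap in the same direction, with 10.02 and 5.24 for genes with an SP footprint against 4.66 and 3.15 for genes without. The CRE letters TGACGTCA were footprinted in 4 members (5.06%), Atp5d, Ndufa10, Ndufb2 and Uqcrfs1, against 2.94% of all open genes. The CCAAT letters CCAATNAG were found in 1 member, Ndufs8, against 2.12%, and TATAAAAG in 1 member, Ndufa7, against 0.228%. No member had a footprinted match in both libraries for the USF letters CACGTGA (1.95% of all open genes), ZNF143 CTACAANTC (0.0758%), KLF CCACACCC (0.91%) or ESRRA TCAAGGTCA (0 of all open genes), or for AGATAA of the GATA factors (0.581%). The erythroid GATA and KLF letters were thus not seen in member promoter footprints, and they were rare there in all genes.

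The same letters were also counted in sequence alone, whether open or not. RefSeq promoter windows matched 67 of the 86 members. NRF1 letters occurred in 21 of them (31.3%), against 9.43% of 16295 windows of all genes, ETS letters in 15 (22.4%), against 12.4%, and YY1 letters in 14 (20.9%), against 6.78%. SP letters occurred in 17 (25.4%), against 23.3%, and CRE letters in 4 (5.97%), against 2.47%. For the other motifs the counts were 7 for CCAAT (10.4%, against 8.73%), 3 for USF (4.48%, against 4.6%), 5 for ZNF143 (7.46%, against 2.1%) and 2 for KLF (2.99%, against 3.7%). GATA letters occurred in 6 windows (8.96%, against 9.73%), ESRRA letters in 2, Atp5g3 and Sdhd (2.99%, against 0.338%), and the TATA letters in 1, Ndufa7 (1.49%, against 1.81%). At least 1 of the NRF1, ETS and YY1 motifs was present in 61.2% of member windows, against 24.7% of all windows. The mitochondrial ribosomal protein genes had a like share for NRF1 (26.1%) and higher shares for ETS (36.2%) and YY1 (30.4%).

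**Figure D4:**
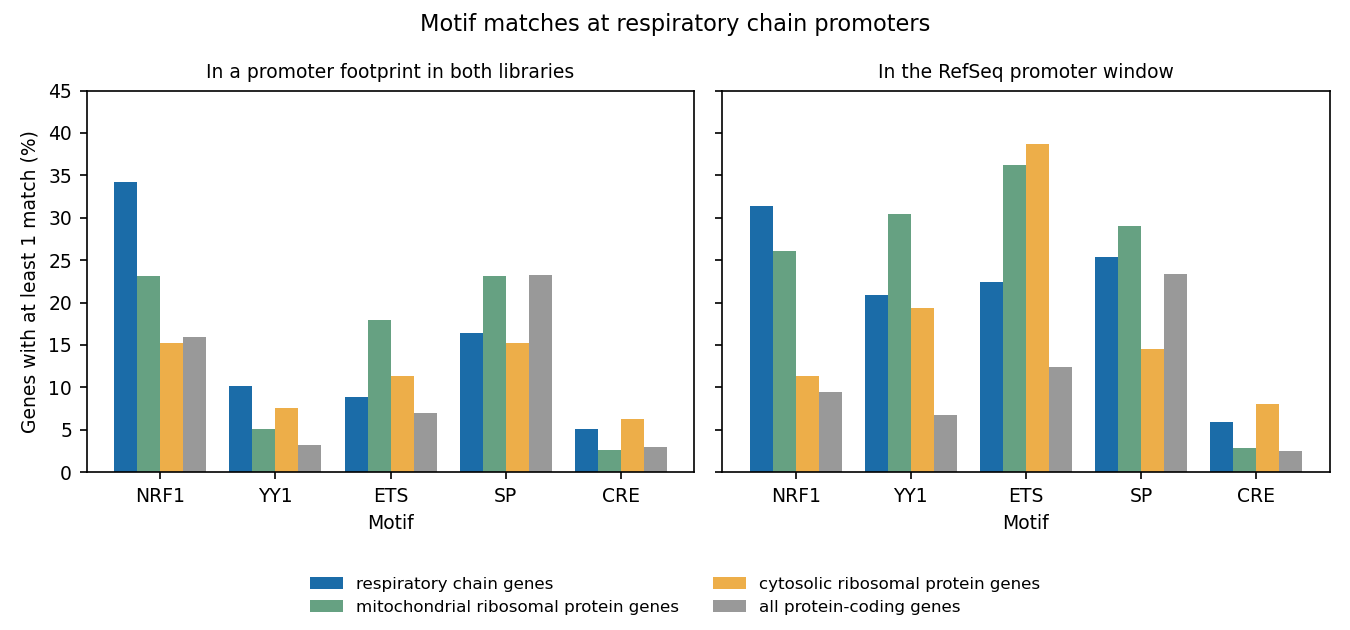
Share of genes (percent) with at least 1 match to each motif in a promoter footprint in both libraries (left, of genes open in both) and in the RefSeq promoter window (right), for respiratory chain genes, the 2 sets of ribosomal protein genes and all protein-coding genes. The share of respiratory chain genes with an NRF1 match was 34.2% on the left and 31.3% on the right, against 15.9% and 9.43% of all protein-coding genes.

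Nearly all members had lower values in replicate 2 than in replicate 1. The log2 ratio of replicate 2 to replicate 1 had a median of -0.81 over the 79 members and ran from -1.81 to 0.39, against a median of -0.70 over all open genes. Across members the Pearson correlation of log2 values was 0.895 and Spearman's rho 0.884, against 0.955 and 0.948 across all 11868 open genes. These points share library and depth and are given as a description. After taking off the running median of shared peaks of like height, which leaves an excess of replicate 2 over replicate 1, the median was 0.08 for members and 0.03 for all genes, so the members followed the other promoters of their height.

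The members that departed most towards replicate 2 were Ndufc2 (excess 0.85), Ndufb7 (0.85), Uqcrh (0.55), Cox6c (0.55) and Ndufs7 (0.53). Those that departed most towards replicate 1 were Cox7a1 (-0.52), Uqcrq (-0.51), Atp5b (-0.50), Atp5g1 (-0.48) and Cox6b2 (-0.47). Both open tissue isoforms were among these 5, and the cause was not tested. For Cox6b2 the values of the libraries come from different peaks, so its excess is not that of a single site. The peak at its start had 3.01 in replicate 2, lower than the value used.

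**Figure D5:**
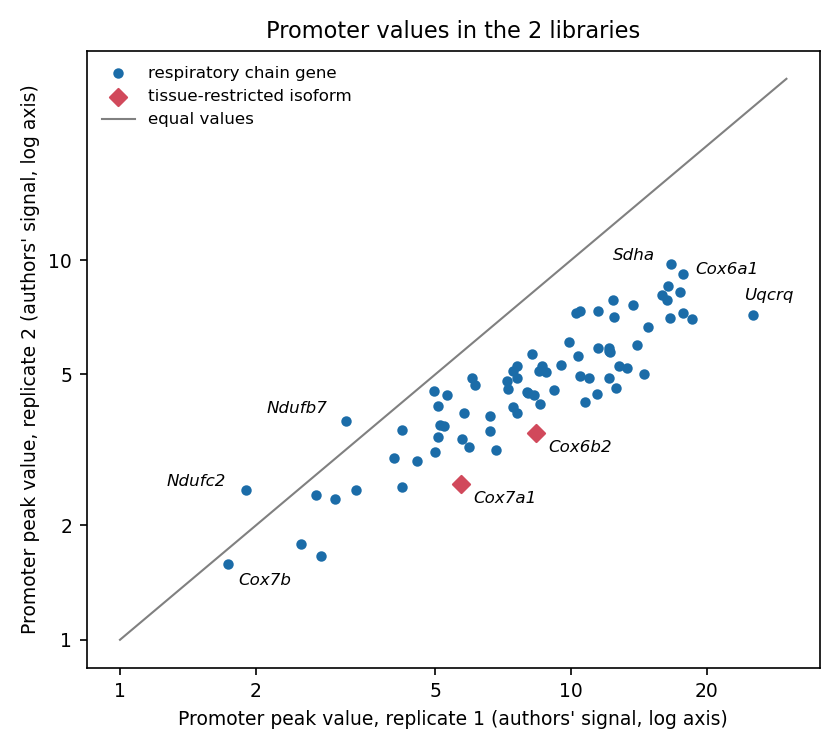
Promoter peak value of each open respiratory chain gene in replicate 1 (x axis) and replicate 2 (y axis), authors' signal on log axes. All but Ndufc2 and Ndufb7 lay below the grey line of equal values, and the open isoforms Cox6b2 and Cox7a1 (diamonds) lay at the lower side of the cloud.

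Open sites away from promoters were counted as peaks shared by both libraries, more than 1000 bases from any annotated start and within 50000 bases of the gene. Members had a mean of 1.67 such peaks, against 1.26 over all protein-coding genes, and 60 of 86 had at least 1, against 54.7% of all genes. The median was 1 in both sets. The mean over members was 0.942 with the shorter peak lists and 0.826 within 20000 bases, settings that were not counted over all genes. The most were found around Sdhc (8), Cox4i2 (8), the second Atp5o record (8), Ndufc1 (7) and Ndufs3 (6). Most sites of the second Atp5o record lay inside its own long span. The sites around Sdhc reached 7.16 and 5.96 and lay 15073 to 38405 bases from it, closer to Cfap126 or Fcgr3 than to Sdhc.

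Cox4i2 was closed at its promoter but had open sites around it. The highest, with 6.63 in replicate 1 and 4.26 in replicate 2, lay 1544 bases past the gene on chromosome 2 (152766581 to 152766760, mm10), and no other protein-coding gene was nearer. Others lay by Id1, H13 and Bcl2l1, an antiapoptotic gene used by erythroid cells. For Ndufc1 the sites lay nearest to Elf2 and Mgarp, and for Ndufs3 to Mtch2, C1qtnf4 and Ndufs3 itself. Nearness does not show which gene such a site acts on.

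Most other genes of the pathway were open too. Among 46 assembly factors, 45 had a promoter peak in both libraries, with medians of 7.82 and 4.70, and Sdhaf1, which helps mature the iron-sulfur subunit of complex II, had none. Ndufaf8, an assembly factor of complex I, had the highest value of that list, with 24.8 and 10.8. Among 20 genes for electron carriers and their synthesis, 19 were open, with medians of 6.79 and 3.94, and the exception was Cyct, the testis form of cytochrome c. Its common counterpart Cycs had 23.3 and 8.72. Cyc1, the cytochrome subunit of complex III that the symbol rule does not take in, had 3.15 and 1.97.

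Among 20 regulators and mitochondrial DNA genes, 18 were open in both libraries. Nrf1 had 4.40 and 4.51, Gabpa 5.72 and 3.37, Yy1 17.4 and 6.13, and Tfam, which packages mitochondrial DNA, 12.5 and 5.61. Esrra, a nuclear receptor of mitochondrial genes, had the highest value, with 36.4 and 10.6. The closed genes were Ppargc1a, the PGC-1alpha coactivator, and Perm1, a muscle regulator. Ppargc1b was open at a low value of 1.98 and 1.57.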

How the data were processed

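DNase-seq was deposited for 2 libraries of fetal mouse liver, each with a longer and a shorter peak list, a footprint list and a table of cutting rates, on mm10 per the file headers and the labels. Each peak has a signal value set by the authors; neither the caller and its version nor the scale between libraries is stated in the labels or the files. The deposited table of cutting holds a false discovery rate (a q-value) per stretch, listed below 0.05, and the deposited footprints carry a constant score of 0.01, so only their positions were used. Peaks were called per library, not pooled, per the text deposited with the files.

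Gene starts came from GENCODE M21. A promoter peak overlapped the 1000 bases around any annotated start, and the highest gave the value. The signal was checked to be whole multiples of 1 step (largest departure 0.00407 and 0.00489 steps). Poisson intervals (95%) were computed on steps as reads. The running median used 501 of the 26687 peaks shared 1 to 1 (at least 1 base). Motif letters were read from GRCm38 (mm10) on both strands, overlapping hits of 1 motif were merged, and in the replicate 1 member peaks no hits of different motifs overlapped. Python 3.11.15, pandas 2.3.3, numpy 2.4.6, scipy 1.17.1, pysam 0.24.0 and samtools 1.23.1 were used, and the scripts were tested on simulated data. RefSeq promoter windows (GRCm38.p6) matched by symbol and position. With 1 group and 2 libraries no test was run: counts stand beside the same count over all genes.

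Named genes were all members without a peak, all isoforms with their counterparts, the 3 highest and 2 lowest of each complex, up to 10 members with a facing start, the 5 with the most and the least excess, and the 5 with the most distal peaks. Other genes, the grouping by subunit role, the X-linked genes and the promoters printed for CpG were picked with their values in view. A few genes that these rules would name are not reported here. The members and lists were chosen with earlier results of these data known. Alternatives were shorter lists, other windows and starts, a stricter threshold, footprints not widened and each library alone; starts of coding transcripts, the nearest peak, the distal mean in each library alone and every alternative for the lists of other pathway genes were added after the data were seen.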

Additional observations from a re-analysis of the deposited data

How the results depend on the processing

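Of 95 alternative values, 88 stayed within the limits set for a like value, 7 moved and 0 reversed. Only the median log2 ratio could be labelled as reversed. The limits were wide: a set fold change for counts and distal means, and a limit scaled to the gap between replicate medians for promoter values. For the ratio the limit was its standard deviation over members, 0.397. The tally is therefore a weak check, and the values themselves follow. The count of open members was 76 with the outermost start of each gene, 80 with a window of 2500 bases, 78 with peaks that overlap by at least 50%, and 79 under the shorter lists, the upper 50% of peaks, the window of 500 bases and coding transcripts. Isoforms numbered 3 at 2500 bases and 2 under the shorter lists, the window of 500 bases, the upper 50% of peaks, the outermost start and either library alone. Medians by the nearest peak were 8.02 and 4.60. The NRF1 count ran from 21 (highest peak only) to 28 (either library alone), with 22 without widening. ETS matches ran from 9 members without replicate 1 to 15 without replicate 2, and fell to 1 without widening. YY1 matches ran from 11 without replicate 1 to 18 without replicate 2, with 0 without widening. The mean of distal peaks was 0.826 within 20000 bases, 0.942 with the shorter lists, and from 1.94 without replicate 1 to 2.57 without replicate 2. ETS, YY1 and distal values thus rest on these choices. No paired analysis was possible because there was 1 group, with no second group to pair its replicates with. With 2 libraries, the spread between replicates cannot be told apart from any difference of scale between them.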
